A study of Tupaia belangeri with 15 samples.

Results

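AUTS2, RNF2 and 8 further Polycomb genes were followed through the retina of the tree shrew (TS, Tupaia belangeri) by their names in the deposited gene lists. Of the 10 genes named (AUTS2, RNF2, RING1, BMI1, PCGF3, PCGF5, EZH1, EZH2, SUZ12 and EED), 9 were listed among 83605 features, 8 had at least 1 UMI (unique molecular identifier, a count of captured RNA molecules), and 7 passed the filter on low counts in at least 1 cell class. RING1 was not listed under its name or as a numbered copy and was not analysed here. The nuclei came from 15 retinas profiled by single-nucleus RNA sequencing on the 10x Genomics platform, 5 retinas each of infant, mature and senile TSs. The labels give the stage of each retina and no age, strain, genotype or treatment. Infant and mature animals came from one animal centre and senile animals from another institute, so stage and source cannot be told apart in any comparison with the senile retinas.

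Polycomb proteins keep genes silent by marking histones. Polycomb repressive complex 1 (PRC1) attaches ubiquitin to histone H2A through RNF2 or its paralog RING1, and each form of the complex holds 1 PCGF subunit, such as BMI1, PCGF3 or PCGF5. PRC2 methylates histone H3 through EZH1 or EZH2, held together by SUZ12 and EED. AUTS2, a gene linked to autism and intellectual disability, encodes a nuclear protein that joins the PRC1 forms with PCGF3 or PCGF5, and in neurons such forms have been tied to active transcription. In the retina, Polycomb activity is known for its part in the order in which progenitors give rise to neurons and glia.

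Nuclei were given a class by their marker genes, none of which is a member: 55012 of the 119765 nuclei within the limits on genes and mitochondrial UMIs were classed, comprising 12444 cones, 700 rods, 15664 bipolar cells (BCs), 952 horizontal cells (HCs), 15417 amacrine cells (ACs), 3819 retinal ganglion cells (RGCs), 4623 Müller cells, 927 astrocytes and 466 microglia. The classed share per retina ran from 28.9% (Senile 3) to 61.7% (Mature 5). Among retinas labelled Cell Ranger 7.0.1 it was 28.9% to 40.1% in senile and 46.2% to 58.2% in infant ones. Among those labelled 5.0.1 it was 49.6% to 49.9% in senile and 46.0% to 48.3% in infant ones. UMIs were summed per retina and class, and levels are given in CPM, the UMIs of a gene per 1000000 UMIs of the class sum after TMM scaling over all class sums. A lower level of a gene in such a sum can come from fewer nuclei with its RNA or from less RNA per nucleus, which cannot be told apart here. The tests between stages scaled each class by itself, so their fold changes can differ from those of the printed levels. In rods the factors of the printed levels were 0.99 to 1.10 in infant and 1.16 to 1.31 in senile retinas, and a larger factor lowers the CPM. In microglia the factors ran from 1.24 (Infancy 5) to 2.36 (Senile 4), and in cones from 0.82 (Mature 2) to 0.96 (Senile 3). Rods were few, with 41 to 103 nuclei per infant retina, 27 to 93 per mature retina and 17 to 44 in Senile 2 to 5. Senile 1 gave 1 rod and was left out of every value for rods. The libraries held 13429873 to 58734300 UMIs, and the labels name 2 versions of Cell Ranger, 5.0.1 for 7 retinas and 7.0.1 for 8, both found in each stage. Pairs of libraries shared 4 to 30 barcodes (median 18), and 20.1% of the shared barcodes classed in both had the same class, against 22.2% from the class sizes.

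AUTS2 (TSDBGID.12911), with 1027102 UMIs over all barcodes, was abundant in each class other than cones and microglia. Its level was 5438 ± 987 CPM in HCs, 3455 ± 397 in ACs and 3360 ± 303 in BCs (SD, n = 15 retinas each). It was 2344 ± 611 CPM in rods (n = 14 retinas), 2252 ± 524 in astrocytes, 1844 ± 311 in Müller cells and 1775 ± 238 in RGCs (n = 15). In cones it was 201 ± 61.6 CPM (n = 15) and in microglia 179 ± 92.5 CPM (n = 14). The lowest and highest HC retinas had 4023 and 6909 CPM, and the highest cone retina, at 292 CPM, lay below the lowest retina of every class except microglia.

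In edgeR's quasi-likelihood test of the classes with the retina as a block, AUTS2 was higher in HCs than in each of the other 8 classes, by a log2 difference of 0.64 (SE 0.10) over ACs, the nearest (Benjamini-Hochberg adjusted p = 8.7e-09). Cones and microglia were each lower than the other 7 classes. Between RGCs and cones the log2 difference was 3.18 (SE 0.11, adjusted p = 1.0e-57). Neighbours in the order that did not differ beyond their spread were ACs and BCs (0.04, adjusted p = 0.72), rods and astrocytes (0.04, adjusted p = 0.76), Müller cells and RGCs (0.04, adjusted p = 0.75), and cones and microglia (0.07, adjusted p = 0.69). Astrocytes were above Müller cells by 0.29 (SE 0.10, adjusted p = 0.014).

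**Figure D1:**
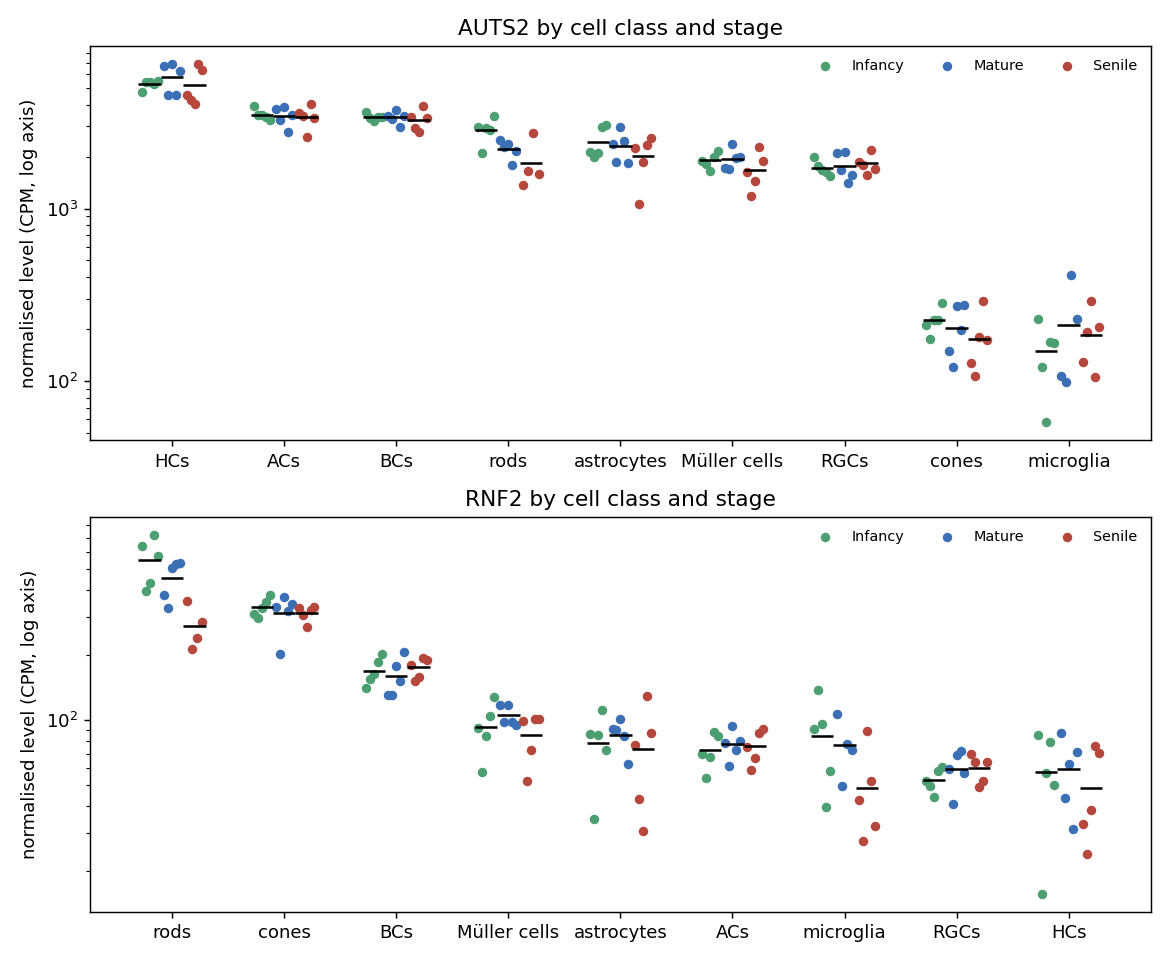
Level of AUTS2 (top) and RNF2 (bottom) in CPM on a log axis by cell class, with 1 point per retina coloured by stage and a bar at the mean of each stage. AUTS2 runs from 5438 CPM in HCs to 179 CPM in microglia, and RNF2 from 439 CPM in rods to 55.1 CPM in HCs.

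Droplet data carry free RNA from broken cells, so a gene has UMIs also in nuclei that do not express it. Percents of the level over all nuclei are from UMIs pooled over retinas, without TMM scaling, unlike the CPM of the classes. The cone genes ARR3 and PDE6H gave the scale of that background: in the 8 classes other than cones, ARR3 stood at 2.78% to 9.57% of its level over all nuclei and PDE6H at 8.88% to 57.3%, the highest being microglia and the next Müller cells, at 35.2%. AUTS2 stood at 7.51% of its level over all nuclei in cones and at 13.0% in microglia, both within the range of these cone genes. In microglia it lay between ARR3 (9.57%) and PDE6H (57.3%) of the same class. For cones the range comes from the other classes, and no background was measured in cones themselves. The median depth was 3281 UMIs per nucleus in cones and 1089 in microglia, against 3445 in ACs. Whether the UMIs of AUTS2 in cones and microglia came from free RNA was not tested, and they are not read as expression. RNF2 was lowest by the same measure in RGCs, at 38.6%, HCs, at 41.3%, and ACs, at 55.7%. In each of these it lay above both cone genes of the same class, PDE6H being at 8.88% in RGCs, 32.5% in HCs and 19.6% in ACs.

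The annotation also lists 14 antisense features of AUTS2, which overlap the gene. They held 198935 UMIs, or 7.66% (microglia) to 17.3% (Müller cells) of the sense and antisense UMIs together. The strand setting of the counting is not given in the sources used here, so reads of the gene and of these features may have been exchanged. The 5 genes with the pattern most like AUTS2 over the 27 means of class and stage, among 10536 genes, were AUTS2-AS-8 (Pearson r = 0.98), AUTS2-AS-12 (0.97), NOVA1 (0.95), AUTS2-AS-9 (0.94) and AUTS2-AS-13 (0.94). NOVA1, which encodes a neuronal RNA-binding protein that acts in splicing, was the only one of the 5 that is not an antisense feature of AUTS2. The 27 points share libraries and depth, so the correlations are descriptions.

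RNF2 (TSDBGID.10817, 57711 UMIs), the ubiquitin ligase of PRC1, was instead highest in photoreceptors. Its level was 439 ± 151 CPM in rods (n = 14 retinas), 321 ± 42.6 in cones and 168 ± 25.1 in BCs (n = 15). The other classes had means from 55.1 ± 23.2 CPM in HCs to 94.8 ± 21.0 CPM in Müller cells. Each of the 15 cone retinas, from 203 to 379 CPM, was above every retina of these 6 classes, while the BC range of 131 to 207 CPM reached into that of the cones and, at its low end, into that of microglia.

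Over the 3 stages together, RNF2 was higher in rods than in the other 8 classes, by a log2 difference of 0.50 (SE 0.09) over cones (edgeR, adjusted p = 7.6e-07). The order of rods and cones was not the same in each stage. The means were 553 CPM in rods and 334 in cones of infant retinas and 456 and 315 CPM in mature ones, but 273 CPM in rods (214 to 355) and 314 in cones (272 to 334) of senile retinas, and the classes were not tested within a stage. Cones were above the other 7 classes, by 0.93 (SE 0.08) over BCs (adjusted p = 1.6e-22). BCs were above the remaining 6, by 0.82 (SE 0.09) over Müller cells (adjusted p = 1.5e-15). Below the BCs no class differed from its neighbour in the order (adjusted p from 0.14 to 0.98). By pattern over the 27 means of class and stage, the genes most like RNF2 were TAGLN2 (r = 0.96), ROM1 (0.96), USP12 (0.96), LINC-NRF1-2 (0.96) and TEAD3-AS-2 (0.96). ROM1 encodes a membrane protein of photoreceptor outer segments and was one of the markers used to class rods. AUTS2 and RNF2 had a correlation of -0.21 over the same 27 points.

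Among the other PCGF subunits of PRC1, PCGF5 (TSDBGID.8913, 95682 UMIs), the partner of AUTS2, was highest in Müller cells at 376 ± 108 CPM (SD, n = 15) and lowest in microglia at 41.5 ± 31.9 CPM (n = 14). The Müller retinas ranged from 187 CPM (Senile 2) to 630 CPM (Mature 5), with a median of 374. BCs (284 ± 42.5 CPM) and cones (278 ± 31.5) followed and did not differ (log2 0.02, adjusted p = 0.84). In the edgeR test Müller cells were above all 8 other classes, by 0.41 (SE 0.08) over BCs (adjusted p = 6.5e-06), and microglia were below all 8, by 1.47 (SE 0.18) under RGCs (adjusted p = 2.5e-12). PCGF5 in cones, at 117% of its level over all nuclei, lay far above the range of the cone genes in other classes, unlike AUTS2. In microglia it stood at 33.4%, below PDE6H in the same class (57.3%), and is not read there as expression.

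BMI1 (TSDBGID.222, 7944 UMIs), a PCGF subunit of canonical PRC1 and a known factor in stem cell renewal, had its highest mean in cones, 30.3 ± 6.75 CPM, and its lowest in RGCs, 11.8 ± 5.42 CPM (SD, n = 15). Cones were above 6 of the other classes. They did not differ from BCs, at 25.9 ± 5.41 CPM (log2 0.18, SE 0.10, adjusted p = 0.089), or from HCs, at 22.7 ± 12.4 CPM (log2 0.33, SE 0.18, adjusted p = 0.13). PCGF3 (TSDBGID.25824) was listed at 0 UMIs in all 467736966, which allows a level of up to 0.0064 CPM. Its antisense feature PCGF3-AS-1 held 3450 UMIs.

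In PRC2, the methyltransferase EZH1 (TSDBGID.9804, 32345 UMIs), the form usual in cells that no longer divide, was highest in cones at 153 ± 19.8 CPM (SD, n = 15) and next in rods at 117 ± 42.7 CPM (n = 14). Cone retinas ran from 121 to 190 CPM, and the highest retina of the BCs, at 104 CPM, lay below them all. Cones were above the other 8 classes and rods above 7, and the log2 difference between the pair was 0.37 (SE 0.12, edgeR, adjusted p = 0.0086). Microglia had the lowest mean, 37.6 ± 29.4 CPM (n = 14), from 44 UMIs. Their large TMM factors lower this value, and they did not differ from Müller cells (log2 0.0081, edgeR, adjusted p = 0.995). EZH1 was the member whose pattern came nearest to RNF2 over the 27 means of class and stage (r = 0.78), followed by EZH2 (0.69).

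EZH2 (TSDBGID.22655, 7435 UMIs), the methyltransferase of dividing cells, had low levels, from 39.7 ± 29.0 CPM in rods (n = 14) and 31.7 ± 7.55 in cones to 7.11 ± 3.67 in RGCs (SD, n = 15). Rods and cones did not differ by the test (log2 0.28, SE 0.21, adjusted p = 0.30). Rods were above the 7 other classes and RGCs below 7, HCs being the exception (adjusted p = 0.072). The rod values rest on 92 UMIs, with 2 retinas at 0.

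The PRC2 core subunit EED (TSDBGID.5420, 16980 UMIs), which reads the methyl mark, was the most even of the members. Its class means lay between 35.9 ± 23.1 CPM in rods (n = 14) and 50.0 ± 34.3 CPM in microglia (n = 14), and 8 of 36 pairs of classes differed, by at most 0.58 in log2. The part of free RNA in the levels of EED, EZH1, EZH2 and BMI1 was not tested. SUZ12 (TSDBGID.3025), the scaffold of PRC2, had 258 UMIs over all barcodes and class means of at most 0.79 CPM. It was at 0 UMIs in HCs and astrocytes, which allows up to 0.85 CPM in HCs and 1.14 CPM in astrocytes, and it was not tested within a class. The antisense feature of SUZ12 held 310 UMIs, and reads may have been exchanged with it, as for AUTS2.

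**Figure D2:**
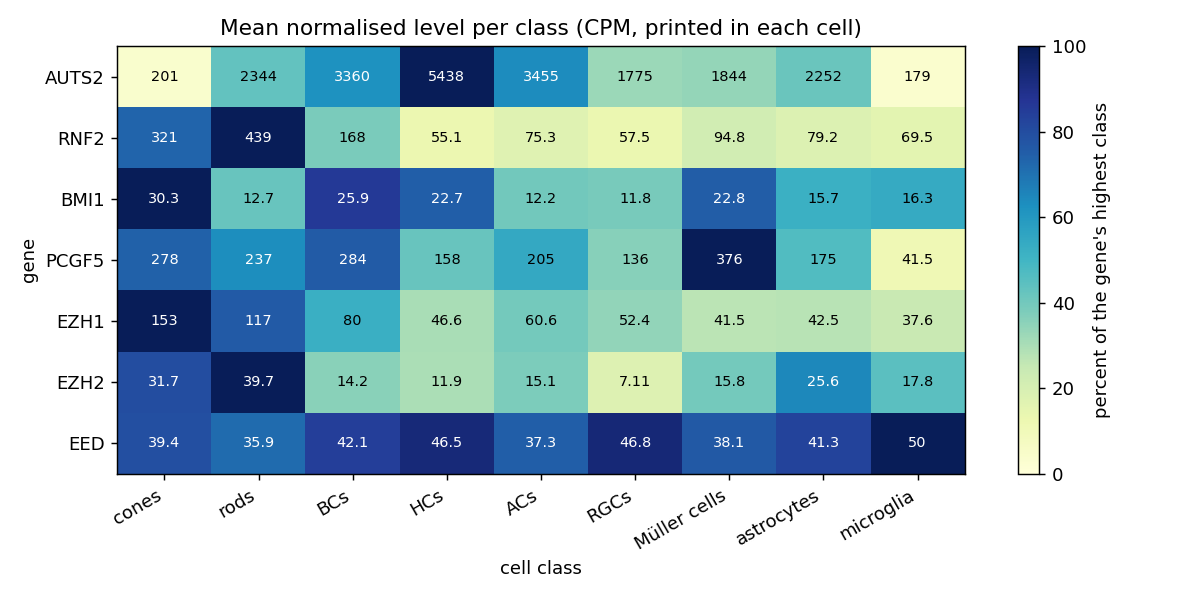
Mean level in CPM (printed) of the 7 members that were tested, by cell class, with the colour showing each mean as a percent of the highest class of the same gene. The highest class is HCs for AUTS2, rods for RNF2 and EZH2, Müller cells for PCGF5, cones for EZH1 and BMI1, and microglia for EED, where the 9 means lie between 35.9 and 50.0 CPM.

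Over the 7 members and 36 pairs of classes, 165 of 252 tests (65.5%) passed an adjusted p of 0.05, where 59.4% of the tests of all genes did. The members differed between classes about as often as other genes. By member the pairs called were 32 for AUTS2, 32 for PCGF5, 29 for RNF2, 27 for EZH1, 21 for EZH2, 16 for BMI1 and 8 for EED. With the 7 retinas of version 5.0.1 alone 128 pairs were called, and with the 8 of version 7.0.1 alone 154. The shares over all genes in these smaller sets are not given here, so the lower counts are not read as a result about the members.

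Between the stages, no member passed the test in any class. The 7 members gave 45 tests of gene and class, and 0 of 45 passed an adjusted p of 0.05 in edgeR's quasi-likelihood test with Cell Ranger version in the model, for senile against infant retinas (1.30% of the tests of all genes were called), for mature against infant (0.895%) and for senile against mature (0.0144%). The median log2 fold change of the 45 was -0.02, 0.00016 and -0.02 in this order, beside -0.01, -0.02 and 0.02 over all genes. At an unadjusted p under 0.05 there were 8 of 45 for senile against infant, 5 of them lower in senile retinas (9.19% of all tests), 3 for mature against infant (11.0%) and 3 for senile against mature (9.26%). DESeq2 called 1, 0 and 0, beside 1.98%, 1.82% and 0.359% of the tests of all genes. The 1 call was RNF2 in rods, and it was also the lowest adjusted p of the 45 in edgeR.

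RNF2 in infant rods stood at 641, 396, 432, 719 and 576 CPM in replicates 1 to 5. Mature rods had 380, 331, 507, 526 and 537 CPM. Senile rods had 355, 214, 240 and 285 CPM in replicates 2 to 5. Every senile retina lay below every infant one, and the mature retinas overlapped with both. The log2 fold change from infant to senile rods was -0.87 (SE 0.21, 95% interval -1.32 to -0.42), with an unadjusted p of 0.00076 and an adjusted p of 0.056, so that it missed the threshold. Of all genes tested in rods, 11.5% had an unadjusted p under 0.05 in this comparison, 9.68% in mature against infant and 8.17% in senile against mature retinas. From infant to mature rods the log2 fold change was -0.35 (SE 0.17, adjusted p = 0.52) and from mature to senile rods -0.52 (SE 0.21, adjusted p = 0.55), the latter with 0.0017 within version 5.0.1 (1 senile retina) and -1.09 within 7.0.1.

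The senile rod values rest on 64 RNF2 UMIs in 4 retinas, beside 493 in infant and 426 in mature rods. Within the retinas of version 5.0.1 the senile rod retina (1) was lower than the infant mean (3) by -0.43 in log2, and within version 7.0.1 the 3 senile retinas were lower than the 2 infant ones by -1.39. Without Senile 2 or without Mature 4, RNF2 in rods passed the threshold, as it did in 4 other settings, and its log2 fold change was below 0 in 24 of 24 alternatives, from -1.18 to -0.28, the last of these with Senile 2 as the 1 senile retina left by a minimum of 30 nuclei.

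The summed markers of the rod class moved in the same direction. Over 11 of 13 listed rod markers that were measured, the summed level in rods had a median of 26372 CPM (16528 to 32568) in infant, 18502 CPM (16796 to 25709) in mature and 15762 CPM (11722 to 21682) in senile retinas. Over 9 of 12 cone markers the sum in rods was 1122 CPM (783 to 1637), 1935 CPM (1352 to 2832) and 2387 CPM (1191 to 2629), with OPN1SW at 0 in each stage and PDE6C and OPN1LW at 0 in the senile rods. In rods of all stages pooled, here without the TMM scaling of the sums above, CLUL1 was the highest of the rod markers at 8639 CPM, followed by SAG at 4365. KCNB2 was the highest of the cone markers in these pooled rods at 1260 CPM, with ARR3 at 88.5, also without TMM scaling. The paper reports that CLUL1 itself decreases in rods with age. Levels of the single markers by stage are not given here. The part of these shifts, and of free RNA, in the values of RNF2 was not tested.

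RNF2 in cones did not pass the test between stages. Infant cones had 310, 296, 332, 352 and 379 CPM in replicates 1 to 5, mature cones 333, 203, 374, 320 and 346 CPM, and senile cones 329, 308, 272, 325 and 334 CPM. The 3 groups overlapped throughout. From infant to senile cones the log2 fold change was -0.13 (SE 0.13, 95% interval -0.41 to 0.14, adjusted p = 0.80).

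The difference between the classes was therefore tested itself, after the values in rods had been seen. The paper also reports a decrease of RNF2 in rods with age from these data. The adjustment over genes does not cover the choice of RNF2 on that ground. In an interaction of class and stage with the retina as a block, the change of RNF2 from infancy to senility was lower in rods than in cones by 0.96 in log2 (SE 0.25, adjusted p = 0.015 over 10833 genes) and lower than in ACs by 1.22 (SE 0.29, adjusted p = 0.0094 over 13446 genes). These fits scaled the classes of a pair together, whereas the fits per class gave -0.87 in rods, -0.13 in cones and 0.0096 in ACs. The parts of this scaling and of free RNA in these differences were not tested. Leaving out 1 retina was the only alternative run. Of all genes tested, 1.08% passed for cones and 0.602% for ACs, beside 0.306% for BCs, 0.237% for HCs, 0.443% for RGCs, 0.877% for microglia, 0.769% for Müller cells and 0.954% for astrocytes. Against the other 6 classes the difference lay between -0.80 and -1.12 and did not pass, with adjusted p = 0.059 for BCs, 0.074 for RGCs and 0.40 to 0.85 for the rest. The result against cones was lost without Infancy 1 (adjusted p = 0.073), Infancy 4 (0.20), Senile 4 (0.096) or Senile 5 (0.088). That against ACs was lost without Senile 3 (0.060), Senile 4 (0.076) or Senile 5 (0.094). Without any 1 retina the differences stayed between -1.15 and -0.78 for cones and between -1.50 and -1.05 for ACs.

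**Figure D3:**
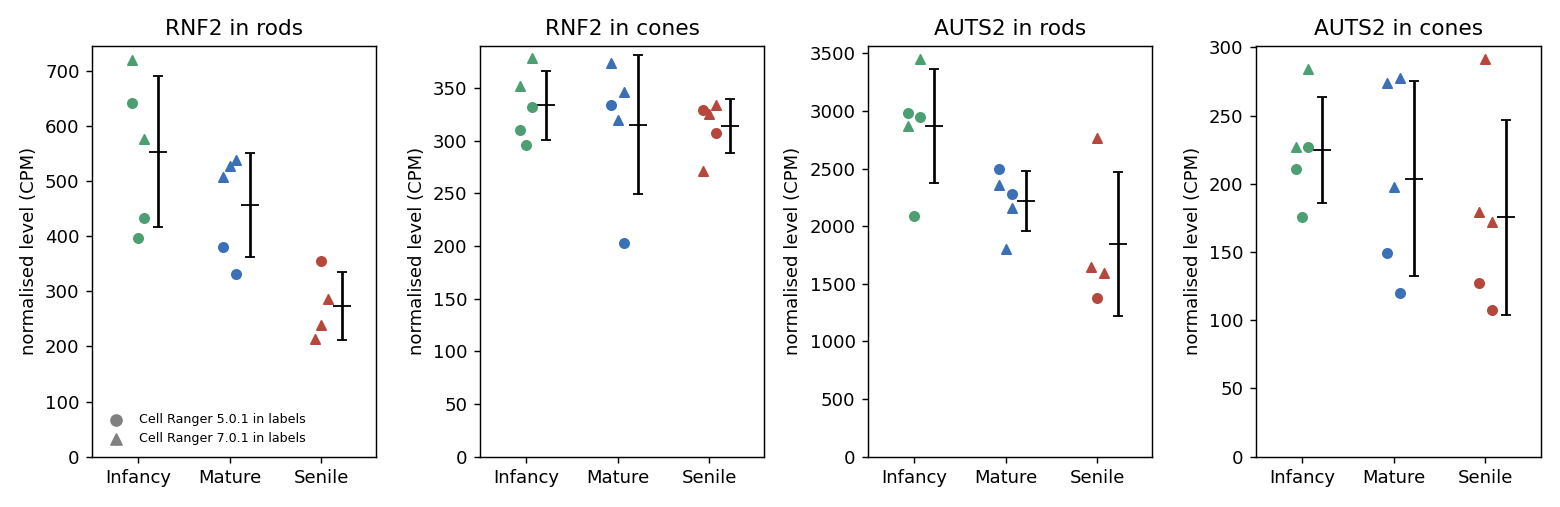
Level of RNF2 and AUTS2 in rods and in cones, in CPM, by stage, with 1 point per retina (circle, Cell Ranger 5.0.1; triangle, 7.0.1) and the mean ± SD. RNF2 in rods has means of 553 CPM in infant and 273 CPM in senile retinas, whereas in cones the means are 334, 315 and 314 CPM.

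AUTS2 in rods stood at 2986, 2087, 2945, 2866 and 3454 CPM in infant replicates 1 to 5. Mature rods had 2496, 2278, 2361, 1800 and 2161 CPM, and senile rods 1379, 1646, 2762 and 1595 CPM in replicates 2 to 5. Senile 4 lay among the infant retinas, though below both of its own Cell Ranger version, and the other 3 senile retinas lay below all infant and mature ones. The log2 fold change was -0.42 (SE 0.20, adjusted p = 0.43) from infant to senile rods, -0.42 (SE 0.17, adjusted p = 0.37) from infant to mature rods and 0.0011 (SE 0.19, adjusted p = 1.00) from mature to senile rods. The senile retinas were lower than the infant ones in the mean log2 level by -0.67. Within version 5.0.1 it was -0.94 (1 senile and 3 infant retinas) and within 7.0.1 -0.70 (3 and 2), with no overlap in these small groups. Each of these differences was larger than that of the model. The levels were scaled over all class sums and the model scaled rods alone, and the part of this in the gap was not tested. The mean level was 2219 CPM in mature and 1845 CPM in senile rods, and the mean log2 level differed by -0.31, with -0.79 within version 5.0.1 (1 senile retina) and -0.11 within 7.0.1. For mature to senile rods the model gave -0.38 with no filter on low counts and -0.50 at a minimum of 30 nuclei, which leaves 1 senile retina. The direction in the model thus depended on the setting. With no filter on low counts, the change from infant to senile rods was -0.76 and passed (adjusted p = 0.0075). None of the differences between rods and another class in the change of AUTS2 passed (adjusted p from 0.20 to 0.95).

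In cones, where AUTS2 was not read as expression, it had 211, 176, 227, 227 and 284 CPM in infant, 149, 120, 274, 197 and 277 CPM in mature and 127, 107, 179, 292 and 172 CPM in senile replicates 1 to 5. The groups overlapped, and Senile 4 was the highest of all 15. From infant to senile cones the log2 fold change was -0.57 (SE 0.18, adjusted p = 0.17). It passed without Senile 4 (-0.72, adjusted p = 0.020), with the stricter gate (-0.98, adjusted p = 0.017) and with no filter (-0.53, adjusted p = 0.039).

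In the remaining 7 classes the log2 fold change of AUTS2 between infant and senile retinas lay between -0.19 in Müller cells (95% interval -0.45 to 0.06) and 0.69 in microglia (-0.10 to 1.49), where it was not read as expression. Its intervals were narrowest in BCs (-0.04, from -0.22 to 0.14) and ACs (-0.02, from -0.23 to 0.20). Over all nuclei, classed or not, the change was -0.28 for AUTS2 (SE 0.14, adjusted p = 0.50) and 0.08 for RNF2 (SE 0.16, adjusted p = 0.89).

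**Figure D4:**
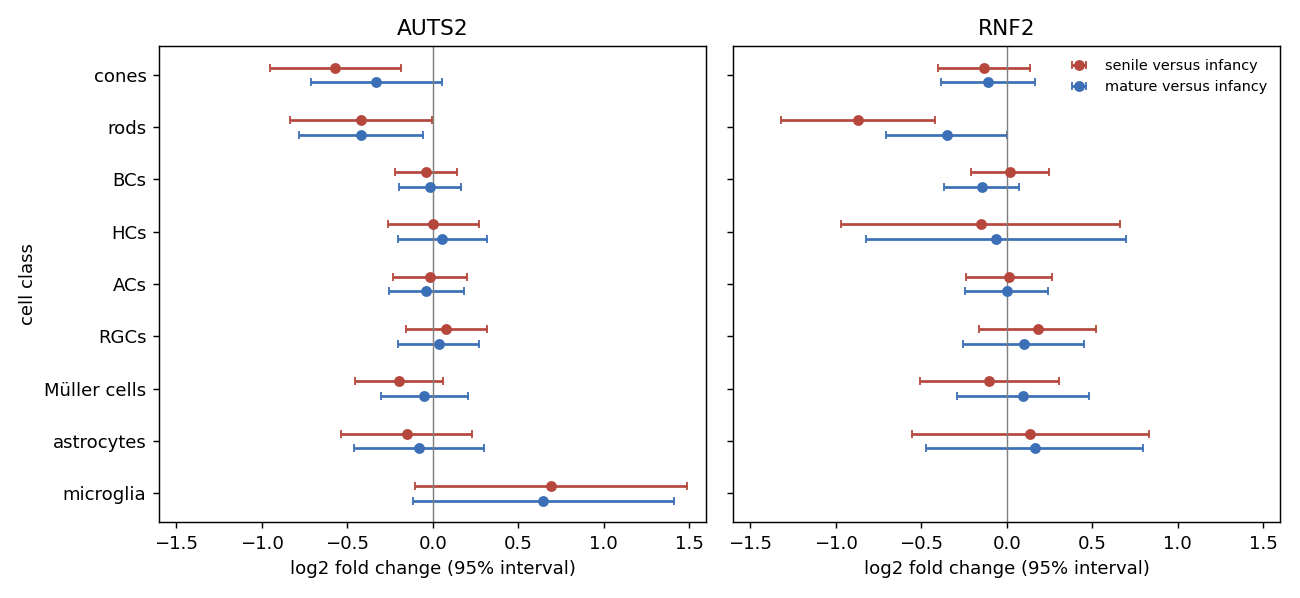
Log2 fold change with 95% interval for AUTS2 and RNF2, senile and mature against infant retinas, by cell class. RNF2 in rods, at -0.87 for senile against infant, lies farthest below 0, and none of the values passed an adjusted p of 0.05.

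Of the other PCGF subunits, BMI1 in senile cones stood at 39.3, 39.6, 34.3, 41.1 and 31.3 CPM in replicates 1 to 5, where infant cones had 33.7, 27.5, 24.4, 23.9 and 25.8 CPM and mature cones 25.7, 21.6, 23.8, 37.5 and 24.8 CPM. The senile retinas were the higher ones, but Infancy 1 and Mature 4 reached into their range. The log2 fold change was 0.44 (SE 0.18, adjusted p = 0.34) against infant and 0.44 (SE 0.18, adjusted p = 0.46) against mature cones. In Müller cells BMI1 had 16.5, 18.3, 17.6, 13.7 and 18.9 CPM in infant and 26.7, 22.4, 32.2, 43.2 and 23.1 CPM in senile replicates 1 to 5, with no overlap (log2 0.82, SE 0.28, adjusted p = 0.26). These values rest on 64 and 71 UMIs. In RGCs BMI1 was 8.31 ± 4.64 CPM in mature and 16.5 ± 4.70 CPM in senile retinas (SD, n = 5), with overlap (log2 0.85, SE 0.33, adjusted p = 0.66). Over all nuclei the change of BMI1 was 0.35 (SE 0.14, adjusted p = 0.36) for senile against infant and 0.39 (SE 0.14, adjusted p = 0.43) for senile against mature retinas. PCGF5 had its largest change from infancy to senility in rods, at 0.41 (SE 0.30, adjusted p = 0.69), and its smallest unadjusted p in ACs, at 0.24 (SE 0.10, adjusted p = 0.49).

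Of the PRC2 members, EZH2 in infant cones stood at 35.1, 30.5, 41.5, 44.4 and 39.0 CPM in replicates 1 to 5. Mature cones had 34.5, 27.3, 38.5, 24.9 and 32.7 CPM, and senile cones 28.8, 24.0, 25.0, 16.2 and 32.6 CPM. Of the senile retinas only Senile 5 reached into the infant range. Senile against infant cones gave a log2 fold change of -0.60 (SE 0.18, 95% interval -0.99 to -0.21, adjusted p = 0.14), with -0.41 within version 5.0.1 and -0.78 within 7.0.1. In BCs EZH2 was 18.7 ± 5.69 CPM in infant, 12.4 ± 4.63 in mature and 11.6 ± 6.63 in senile retinas (SD, n = 5), with log2 fold changes of -0.70 (SE 0.24, adjusted p = 0.21) for mature and -0.61 (SE 0.26, adjusted p = 0.48) for senile against infant. The senile mean includes Senile 2, with 0 UMIs of EZH2 among 200047. Over all nuclei EZH2 had a log2 fold change of -0.42 from infancy to senility (SE 0.17, adjusted p = 0.37). EZH1 had its largest change in mature against infant rods, at -0.66 (SE 0.26, adjusted p = 0.34). EED changed by at most 0.17 in log2 from infancy to senility in the classes tested (ACs, SE 0.15, adjusted p = 0.84).

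Another 50 genes were read from lists of Polycomb subunits, of enzymes that remove their marks, and of AUTS2 relatives and partners. Of these, 43 were tested in at least 1 class, in 224 tests. From infancy to senility 2 tests rose and 1 fell, or 3 of 224 beside 1.30% of the tests of all genes, and from infancy to maturity 2 rose and 0 fell, beside 0.895%. These genes were thus called about as often as any others. From maturity to senility 0 of 224 passed in edgeR, beside 0.0144% of the tests of all genes. At an unadjusted p under 0.05 there were 22 of 224 (9.26% of the tests of all genes). DESeq2 called 1 of 224 (SCML4 in ACs), beside 0.359% of its tests of all genes. The median log2 fold changes were -0.0082, 0.012 and -0.04 in this order. All 5 calls were in the list of other PRC1 subunits, of which 21 of 23 genes were tested. At an unadjusted p under 0.05 this list had 8 of 85 tests from infancy to senility, 16 of 85 from infancy to maturity and 15 of 85 from maturity to senility, beside 9.19%, 11.0% and 9.26% of the tests of all genes. The other 4 lists had 0 calls in edgeR: AUTS2 relatives and partners (5 of 7 genes tested, among them FBRSL1 and EP300), PRC2 accessory subunits (8 of 10, with JARID2 and MTF2), the PR-DUB deubiquitinase, which takes ubiquitin off histone H2A (8 of 8, with BAP1 and ASXL1), and demethylases of histone H3 (1 of 2, KDM6A). From infancy to senility these lists had 2 of 29, 3 of 50, 4 of 51 and 1 of 9 tests at an unadjusted p under 0.05, beside 9.19% of the tests of all genes. DESeq2 called 0 of the tests of these lists, beside 1.98% of its tests of all genes. From infancy to maturity DESeq2 called 1 of them, CSNK2A2 in ACs, which encodes a subunit of casein kinase 2, beside 1.82% of its tests of all genes.

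PCGF2, a PCGF subunit closely related to BMI1, rose in cones. Infant cones had 1.42, 0.86, 2.64, 3.41 and 4.18 CPM in replicates 1 to 5, mature cones 6.29, 6.48, 7.70, 7.50 and 5.64 CPM, and senile cones 6.93, 10.4, 11.0, 7.41 and 8.40 CPM. Every mature and every senile retina was above every infant one. The log2 fold change was 1.73 (SE 0.31, adjusted p = 0.0040) for senile and 1.38 (SE 0.31, adjusted p = 0.031) for mature against infant cones, and within versions 5.0.1 and 7.0.1 the senile difference was 1.74 and 0.98. Cones had the lowest mean level of PCGF2 among the 9 classes, 6.02 CPM, beside 28.1 CPM in Müller cells, and the part of free RNA in the rise was not tested. The mature call was lost without any 1 of Infancy 1 to 4 and Mature 1 to 4 (adjusted p from 0.056 to 0.097), with stage alone in the model (0.065) and with the replicate number as a block (0.082), while the senile one held in each of these. With a stricter gate on the markers neither passed (senile 1.93, adjusted p = 0.070).

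KDM2B, which brings a variant PRC1 to unmethylated CpG islands, rose in senile cones. Infant cones had 19.9, 15.5, 9.88, 13.3 and 15.7 CPM in replicates 1 to 5, mature cones 18.9, 26.6, 18.2, 14.2 and 14.7 CPM, and senile cones 26.4, 31.6, 20.9, 25.6 and 21.9 CPM. Every senile retina was above every infant one. The log2 fold change was 0.78 (SE 0.19, adjusted p = 0.048), close to the threshold. It stayed called without Infancy 1 or Mature 2 and was lost without any 1 of the other 13 retinas, with a log2 fold change between 0.67 and 0.87 and an adjusted p of up to 0.16 (without Senile 2). It was also lost with the replicate number as a block (adjusted p = 0.099), with stage alone in the model (0.14), with no filter on low counts (0.094) and with the looser gate (0.058). Cones had the lowest mean level of KDM2B among the 9 classes, 19.5 CPM beside 43.4 CPM in BCs, and the part of free RNA in the rise was not tested.

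SCMH1, a PRC1 subunit, rose in mature BCs, which had 169, 170, 176, 168 and 183 CPM in replicates 1 to 5, where infant BCs had 113, 111, 106, 131 and 142 CPM and senile BCs 126, 147, 136, 150 and 157 CPM. Mature retinas were above all others. From infant to mature BCs the log2 fold change was 0.49 (SE 0.09, adjusted p = 0.0094), with 0.62 within version 5.0.1 and 0.36 within 7.0.1. It was 0.40 with the stricter gate (adjusted p = 0.14) and 0.51 with no filter on low counts (adjusted p = 0.084).

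SCML4, a relative of SCMH1, fell in senile ACs, the class with its highest mean level (23.6 CPM). Senile ACs had 9.01, 10.5, 14.8, 14.3 and 17.8 CPM in replicates 1 to 5, infant ACs 14.6, 31.5, 21.8, 32.9 and 44.9 CPM, and mature ACs 10.9, 17.6, 27.9, 37.4 and 48.9 CPM. Infancy 1 lay among the senile retinas and the other infant retinas above them, and in each stage the retinas of version 7.0.1 were higher in the mean. From infant to senile ACs the log2 fold change was -1.31 (SE 0.25, adjusted p = 0.011), with -1.04 within version 5.0.1 and -1.23 within 7.0.1. With stage alone in the model it was -1.13 and not called (adjusted p = 0.41), and likewise -1.05 with the stricter gate (adjusted p = 0.52). The summed level of 9 of 10 astrocyte markers in ACs had a median of 745 CPM in infant, 235 in mature and 431 in senile retinas, whose part in the fall was not tested. In ACs of all stages pooled, here without TMM scaling, SPARCL1 was the highest of these markers at 203 CPM, with GFAP at 0.20.

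**Figure D5:**
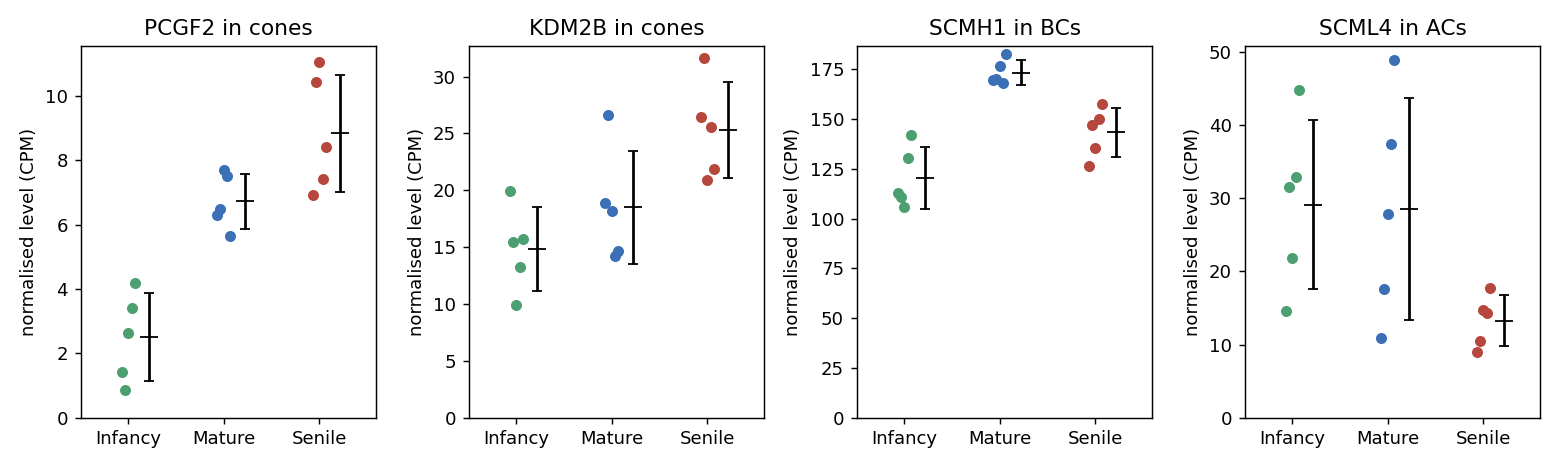
Level in CPM of PCGF2 and KDM2B in cones, SCMH1 in BCs and SCML4 in ACs by stage, with 1 point per retina and the mean ± SD. PCGF2 rises from a mean of 2.50 to 8.84 CPM and KDM2B from 14.8 to 25.3 CPM between infant and senile cones, SCMH1 from 120 to 173 CPM between infant and mature BCs, and SCML4 falls from 29.1 to 13.3 CPM between infant and senile ACs.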

How the data were processed

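Nuclei were isolated from frozen TS retinas, and poly-A RNA was captured with the 10x Genomics 3′ chemistry. With Cell Ranger and the TS_3.0 genome, the authors made and deposited raw UMI counts per feature and barcode, with no normalization. The labels name Cell Ranger 5.0.1 for 7 libraries and the file headers 6.1.2, and both name 7.0.1 for the other 8. Whether intronic reads were counted is not given in the sources used here, and the default differs between versions. Coordinates and sequences of the genes were not used here.

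A barcode was kept if it had over 200 and under 6000 genes, with less than 5% of its UMIs mitochondrial, a limit that rests on 1 mitochondrial feature. Each nucleus was classed by the likelihood of its UMIs of 57 marker genes (of 66 listed) under the profiles of 9 classes, at a likelihood ratio of at least 20 over the next profile and at least 2 markers of its class seen. The 13370 nuclei whose UMIs matched an even mixture of 2 classes best were treated as doublets and, like those under the ratio, left unclassed; 19918 nuclei lay near the limit, at a ratio of 10 to 40. The markers comprise genes that the study names. No member took part.

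UMIs were summed per retina and class, for at least 10 nuclei. Stages were compared with edgeR 4.0.16 (R 4.3.3; filterByExpr, TMM and the quasi-likelihood test) with terms for stage and for the Cell Ranger version of the labels. Classes were compared in pairs with the retina as a block. Benjamini-Hochberg adjustment ran over all genes of a class or pair, and a call is an adjusted p under 0.05. The study tested nuclei with sex as a covariate; here the retina is the replicate, since nuclei are not independent, and the labels give no sex. Standard errors were taken from the log2 fold change and its F statistic. Intervals and limits for counts of 0 (3 UMIs of the total) cover counting error only where no replicates enter. The paper describes 15 donor animals, 5 per stage, while the labels do not tie a retina to an animal. The procedure was tested on simulated data.

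Alternatives were DESeq2 1.42.0, library sizes alone, the most abundant feature (LINC-FRMD8-1) left out, no filter on low counts, stage alone, the replicate number as a block, a stricter gate (ratio 100, 3 markers), a looser gate (ratio 5, 1 marker), the 7940 barcodes with the most UMIs left out, at least 30 nuclei, and each retina left out. The members and gene lists were chosen with earlier results of these data known. For AUTS2 and RNF2 these include the decrease in rods with age that the paper reports. The adjustment over genes does not cover this choice. The text names each member, each gene of the other lists that passed the adjusted p for senile or mature against infant retinas, and for AUTS2 and RNF2 the 5 genes with the highest correlation among those with a mean of at least 10 CPM.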

Additional observations from a re-analysis of the deposited data

Results flagged for a closer look

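In 14 of the 189 groups of 4 or 5 retinas checked for the level of a member, 1 retina stood apart from the others by Dixon's gap test at the 95% level. Chance alone sets about 1 in 20 groups apart. BMI1 was high in cones of Mature 4 (37.5 CPM, the others 21.6 to 25.7), in RGCs of Senile 4 (24.9 CPM from 10 UMIs, the others 13.8 to 15.3) and in rods of Senile 4 (16.0 CPM from 1 UMI, the others 0). PCGF5 was high in cones of Infancy 1 (303 CPM, the others 242 to 259) and in RGCs of Infancy 5 (180 CPM, the others 116 to 129) and Senile 4 (182 CPM, the others 107 to 121), and low in Müller cells of Senile 2 (187 CPM from 25 UMIs, the others 367 to 402).

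EZH1 was high in BCs of Infancy 5 (102 CPM, the others 67.9 to 76.9), in ACs of Senile 4 (74.2 CPM, the others 50.6 to 52.8), in RGCs of Mature 3 (88.7 CPM, the others 47.2 to 54.2) and in microglia of Mature 3 (126 CPM from 18 UMIs, the others 20.8 to 24.7). EZH2 was at 0 UMIs in BCs of Senile 2 (0 CPM, the others 12.9 to 16.5). This sum held 200047 UMIs from 207 nuclei, the fewest of the senile BCs, so the 0 is not read as absence. EZH2 was high in RGCs of Infancy 4 (16.0 CPM from 19 UMIs, the others 5.71 to 8.36). EED was low in ACs of Infancy 2 (25.4 CPM, the others 36.8 to 39.4). The levels of AUTS2 and RNF2 held no such retina.

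The change of RNF2 from infancy to senility differed between rods and 2 of the 8 other classes. It was lower in rods than in cones by a log2 difference of -0.96 (edgeR, adjusted p = 0.015) and lower in rods than in ACs by -1.22 (adjusted p = 0.0094), in tests added after the values in rods were seen. Against the other 6 classes it did not pass (adjusted p from 0.059 to 0.85). The result was lost without Infancy 1, Infancy 4, Senile 4 or Senile 5 for cones (adjusted p up to 0.20), and without Senile 3, Senile 4 or Senile 5 for ACs (up to 0.094). The classes of a pair were scaled together in these tests, and no alternative other than leaving out a retina was run. The paper had already reported RNF2 as decreased in rods with age from these data.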

How the results depend on the processing

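The count of 0 calls among 45 tests of the members for senile against infant retinas became 1 of 45 with DESeq2 (1.98% of the tests of all genes), 3 of 70 with no filter on low counts (0.966%), 1 of 33 with the stricter gate (1.12%), 1 of 50 with the looser gate (1.28%) and 1 of 43 without the barcodes with the most UMIs (1.33%). It ranged from 0 to 1 with 1 retina left out (RNF2 in rods without Senile 2 or Mature 4, AUTS2 in cones without Senile 4), beside 1.05% to 1.45% of the tests of all genes. It stayed 0 for mature against infant and for senile against mature retinas in each of the 25 alternatives. Over all genes 0.552% to 1.82% and 0% to 0.461% of the tests were called there. The counts of 0 are near these shares and are not read as a result about the members. The calls between classes ranged from 128 to 174 of 252, and from 157 to 165 with 1 retina left out. The shares over all genes in these settings are not given here, so the ranges are not read as a result about the members. RNF2 in rods, senile against infant, had a log2 fold change from -1.18 to -0.28 and was called in 6 of 24 alternatives, with adjusted p from 0.0090 to 0.89. AUTS2 in rods was below 0 in 24 of 24 and called in 1.

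The direction turned for 4 differences that were not called in any alternative. AUTS2 in rods, senile against mature, went from 0.0011 to -0.013 without the most abundant feature, -0.38 with no filter, -0.0050 with stage alone, -0.058 with the looser gate and -0.50 at 30 nuclei, and lay between -0.27 and 0.14 with 1 retina left out. RNF2 in rods, senile against mature, went from -0.52 to 0.12 at 30 nuclei, which leaves 1 senile retina. RNF2 in cones, mature against infant, lay between -0.18 and 0.027 with 1 retina left out. RNF2 in cones, senile against mature, was 0.034 with library sizes alone and lay between -0.15 and 0.056 with 1 retina left out. For these the cause was not tested. Of the other Polycomb genes, the 5 calls kept their direction throughout. The stricter gate, which classed 19730 nuclei, ended 4 of them, KDM2B in senile cones being kept (adjusted p = 0.024).

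Whether equal replicate numbers pair the retinas was checked over all nuclei. Deviations from the stage means correlated at -0.47 to 0.51 within the 15 pairs of the same number (13 over 0.1), and after the Cell Ranger version was taken out 1 of 15 was over 0.1, so the numbers were not taken as pairs. With the number as a replicate block the members had 0 calls in each comparison between stages. Over all genes 1.06% of the tests were called for senile against infant, 0.691% for mature against infant and 0.00431% for senile against mature retinas. RNF2 in rods had -0.81 (adjusted p = 0.16, senile against infant). The block ended 2 of the 5 calls among the other genes, PCGF2 in mature cones (adjusted p = 0.082) and KDM2B in senile cones (adjusted p = 0.099). Depth limits the low members most: SUZ12 could not be tested in a class, and EZH2 in rods rests on 92 UMIs. The stricter gate left too few senile rods for a fit.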
